A study of Mus musculus with 16 samples.

Results

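The Cyp3a genes encode cytochrome P450 enzymes of the endoplasmic reticulum that oxidise drugs, steroid hormones and bile acids, and they are among the most abundant drug-metabolising enzymes of the liver. Their transcription is driven by the nuclear receptors PXR (gene Nr1i2) and CAR (gene Nr1i3), which bind DNA with RXR, on a ground state kept by hepatocyte factors such as HNF4. In mice, Cyp3a11 is the best known PXR target, whereas Cyp3a16, Cyp3a41 and Cyp3a44 are known as genes expressed more in female than in male liver, a sex difference set by the pattern of growth hormone release. The 8 members described here, Cyp3a11, Cyp3a13, Cyp3a16, Cyp3a25, Cyp3a41a, Cyp3a41b, Cyp3a44 and Cyp3a59, were chosen by their gene symbol and with their levels and their differences between groups in these samples known. They are 8 of the 24082 Ensembl genes in the liver table, and all 8 passed the filter on low values that left 12535 genes to test. Another gene of the family in the table, Cyp3a57, had at most 7 reads in a library and is given by its position only.

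Liver RNA was sequenced from 16 female C57BL6/J mice, 4 in each of 4 groups, and all mice received a liquid Lieber-DeCarli diet. The study describes the mice that were fed as 9 to 11 weeks old, and does not state the age at sampling. Mice of the Pair group were pair-fed the control diet with vehicle, and mice of the Pair IMC group received the same diet with iodomethylcholine (IMC). EtOH mice were fed ethanol with vehicle, and EtOH IMC mice were fed ethanol with IMC. IMC blocks the enzyme by which gut bacteria make trimethylamine from choline and was given at 0.06% wt/wt in the diet. Ethanol in the chronic model rose to 6% vol/vol over 25 days. The study describes lower diet intake and body weight in mice given IMC together with ethanol. It also marks a body weight difference between pair-fed mice with and without IMC. Diet intake and body weight cannot be told apart here from the treatments themselves, and neither was analysed. Every library holds 1 liver, so that fewer hepatocytes and less RNA per hepatocyte cannot be told apart. Between 9632659 and 12601199 reads were counted on genes per library. All 8 hepatocyte markers were detected in each group, the Y-linked genes examined had 0 reads, and no library duplicated another of its group. Libraries numbered 1 to 8 hold the Pair IMC and EtOH mice and libraries 9 to 16 hold the Pair and EtOH IMC mice, so a comparison of single groups also compares low with high library numbers, which the labels do not explain. Effects averaged over both diets or over both treatments are balanced over low and high numbers. The difference of the IMC effect between the diets is the same contrast as high against low numbers and cannot be told apart from it. Pair-fed mice have even library numbers and ethanol-fed mice odd ones. Each comparison of ethanol with pair feeding thus also compares odd with even numbers, which the labels do not explain. Values below are normalised read counts, brought to the same scale in all 16 libraries, and mice are named by their group and library number.

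All 8 members lie on mouse chromosome 5 (GRCm38), and 7 of them stand in a cluster of 768.0 kb that holds 9 Cyp3a genes. In order along the chromosome these are Cyp3a57, Cyp3a16 (145436309 to 145469723), Cyp3a41b (145558664 to 145584730), the pseudogene Cyp3a63-ps, Cyp3a41a (145694049 to 145720136), Cyp3a44 (145773983 to 145805874), Cyp3a11 (145854426 to 145879964), Cyp3a25 (145977194 to 146009618) and Cyp3a59 (146079257 to 146113287). Cyp3a13 (137892932 to 137921619), which is also known from the gut, lies 7423.7 kb from the cluster. Of the members, Cyp3a59 alone is on the plus strand. Their coding sequences fall into a tight set of Cyp3a11, Cyp3a16, Cyp3a41a, Cyp3a41b and Cyp3a44, whose pairs are 92.51% to 99.87% identical, and a pair of Cyp3a25 and Cyp3a59, which are 97.48% identical to each other and at most 77.36% identical to Cyp3a11. Cyp3a41a and Cyp3a41b differ at 2 coding bases. Cyp3a13 is at most 77.87% identical to any other member.

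Upstream sequences largely follow the same grouping, and they are printed for the 3 kinds of gene whose levels differed most from each other: Cyp3a16, Cyp3a41a and Cyp3a44, whose levels averaged over both diets were lower with IMC, Cyp3a11, which has a close coding sequence but another pattern, and Cyp3a25, the most abundant gene of the other pair. Each is taken from the 250 bases before the RefSeq start of the gene on GRCm38.p6, less the 110 bases nearest to the start in Cyp3a11, which lie inside its GENCODE gene model, and is read 5′ to 3′ on the minus strand: Cyp3a16 from chr5:145469724-145469973, Cyp3a41a from chr5:145720137-145720386, Cyp3a44 from chr5:145805875-145806124, Cyp3a11 from chr5:145879965-145880104 and Cyp3a25 from chr5:146009619-146009868. Capitals mark exact matches, on either strand, to a nuclear receptor half-site (AGGTCA), an HNF4-type site (CAAAGTCCA), a forkhead core (TGTTTAC) and a TATA-like run (ATATAA), and matches to the latter on both strands overlap in the longer run of capitals. These motifs were picked after the sequences were seen. The HNF4-type and TATA-like matches of Cyp3a11 lie in the bases not printed.
Cyp3a16: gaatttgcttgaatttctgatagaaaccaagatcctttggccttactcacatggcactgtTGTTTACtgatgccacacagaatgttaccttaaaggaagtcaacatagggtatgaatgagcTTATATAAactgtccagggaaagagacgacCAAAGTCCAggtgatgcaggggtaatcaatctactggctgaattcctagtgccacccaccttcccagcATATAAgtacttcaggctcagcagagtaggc
Cyp3a41a: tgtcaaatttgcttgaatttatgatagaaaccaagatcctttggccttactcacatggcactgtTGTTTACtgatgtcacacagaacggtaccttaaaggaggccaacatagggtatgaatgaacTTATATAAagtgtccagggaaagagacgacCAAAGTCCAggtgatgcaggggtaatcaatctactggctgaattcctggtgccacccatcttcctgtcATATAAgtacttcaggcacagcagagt
Cyp3a44: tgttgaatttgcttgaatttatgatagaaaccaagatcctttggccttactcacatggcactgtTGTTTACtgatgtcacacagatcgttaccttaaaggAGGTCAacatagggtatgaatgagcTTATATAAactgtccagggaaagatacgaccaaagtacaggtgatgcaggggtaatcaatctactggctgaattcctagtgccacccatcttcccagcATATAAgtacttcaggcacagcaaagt
Cyp3a11: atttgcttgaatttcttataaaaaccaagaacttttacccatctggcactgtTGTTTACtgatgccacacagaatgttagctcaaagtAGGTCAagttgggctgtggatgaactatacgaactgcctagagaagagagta
Cyp3a25: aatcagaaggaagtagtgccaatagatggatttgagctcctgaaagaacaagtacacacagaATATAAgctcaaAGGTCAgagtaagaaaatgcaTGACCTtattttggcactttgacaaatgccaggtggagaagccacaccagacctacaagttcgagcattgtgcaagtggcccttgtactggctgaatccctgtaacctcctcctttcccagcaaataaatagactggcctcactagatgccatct

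The upstream sequence of Cyp3a16 was 91.37% identical to that of Cyp3a41a and 92.94% identical to that of Cyp3a44, but 77.07% identical to that of Cyp3a11 and 58.21% identical to that of Cyp3a25. Cyp3a41b, which is not printed, differed from Cyp3a41a at 1 base of the 250, and Cyp3a59 was 94.82% identical to Cyp3a25. The forkhead core was present in 5 members, namely Cyp3a11, Cyp3a16, Cyp3a41a, Cyp3a41b and Cyp3a44, and in 3.09% of 27025 mouse promoters of the same length. An HNF4-type match was present in 4 of these, Cyp3a44 being the exception, and in 0.381% of promoters. A nuclear receptor half-site was present in Cyp3a11, Cyp3a25, Cyp3a44 and Cyp3a59, and in 13.8% of promoters. A STAT5-type motif (TTCNNNGAA) had no exact match in any of the 8 windows and was present in 7.18% of promoters, and the TATA-like run was in 7 members and 9.51% of promoters. A match of letters is a description and was not tested for binding, and no match says only that these letters are not in this window. As the motifs were picked after these sequences were seen, and related members have alike sequences, the shares of promoters are no test of enrichment.

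How far reads can be assigned to single members was examined with all 100-base windows of the member transcripts. For Cyp3a11, Cyp3a13 and Cyp3a16, 99.7%, 100% and 99.9% of windows were found in no other gene, and for Cyp3a25, Cyp3a44 and Cyp3a59 these shares were 94.0%, 94.6% and 94.4%. Only 9.18% of the windows of Cyp3a41a and 11.8% of those of Cyp3a41b were in no other gene. The rows of Cyp3a41a and Cyp3a41b are thus uncertain as single genes, and their sum is given beside them. How the counting treated reads with several places in the genome is not given in the sources used here.

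**Figure D1:**
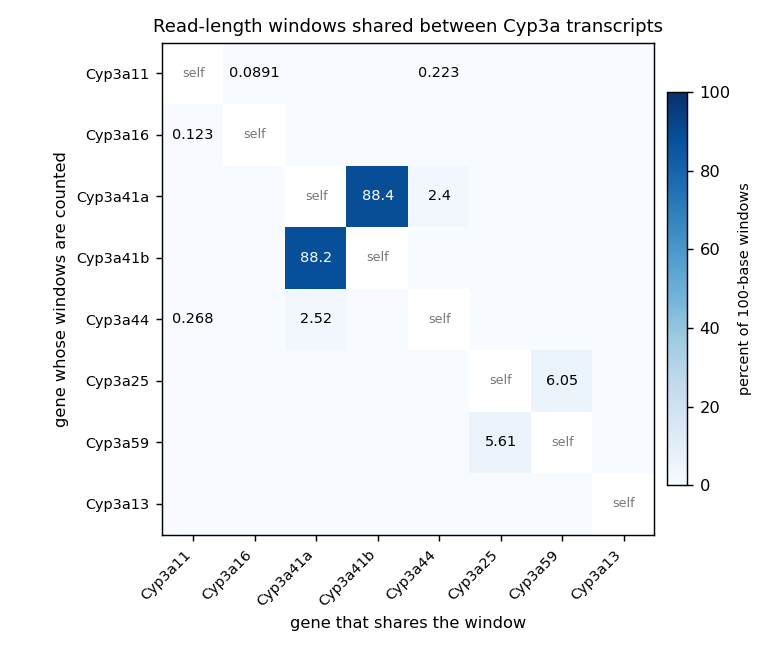
Percent of the 100-base windows of each Cyp3a transcript (rows) that also occur in the transcript of another member (columns), with blanks where none is shared. Cyp3a41a and Cyp3a41b share 88.4% and 88.2% of their windows, Cyp3a25 and Cyp3a59 share 6.05% and 5.61%, and all other pairs share at most 2.52%.

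In Pair mice, levels per kb of exon were highest for Cyp3a11, at 5283 ± 397 (SD, n = 4), followed by Cyp3a25 at 4330 ± 1138. Next in order were Cyp3a16 at 2282 ± 612, Cyp3a41a at 2037 ± 615, Cyp3a44 at 1028 ± 345, Cyp3a13 at 877 ± 280, Cyp3a59 at 440 ± 132 and Cyp3a41b at 105 ± 51.7. Neighbours Cyp3a11 and Cyp3a25, Cyp3a16 and Cyp3a41a, and Cyp3a44 and Cyp3a13 were closer than the larger of their SDs. The annotated exons of Cyp3a11 include a retained intron. With the length of the longest protein-coding transcript, chosen after the annotation was seen, the level of Cyp3a11 was 11479 ± 863 per kb against 4510 ± 1186 for Cyp3a25, which placed it well beyond this spread, and the order of the other members did not change. The 8 members together took 0.407% to 0.500% of the reads of a Pair library.

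Cyp3a16 showed the widest range of the family. Its normalised read counts in Pair mice 10, 12, 14 and 16 were 5311, 2898, 4211 and 3372, and in Pair IMC mice 2, 4, 6 and 8 they were 274, 120.0, 365 and 452. EtOH mice 1, 3, 5 and 7 had 1378, 3892, 3625 and 2750. In EtOH IMC mice 9, 11, 13 and 15 the values were 45.3, 37.0, 4.95 and 0. The highest mouse given IMC was below the lowest vehicle mouse on each diet, and EtOH IMC mice were all below Pair IMC mice. Behind the 4 EtOH IMC values stood 53, 44, 5 and 0 reads, so in mouse 15 a count of 0 allows up to 3 reads. The group mean with IMC was 7.67% of that with vehicle on the pair diet and 0.750% on the ethanol diet.

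Cyp3a44 followed the same order of group means, with a narrower range. Its values were 1926, 1187, 2117 and 2836 in Pair mice 10, 12, 14 and 16, and 823, 316, 370 and 965 in Pair IMC mice 2, 4, 6 and 8. They were 720, 1403, 1157 and 719 in EtOH mice 1, 3, 5 and 7, and 232, 221, 45.5 and 42.3 in EtOH IMC mice 9, 11, 13 and 15. Groups with and without IMC did not overlap on either diet, and the IMC mean was 30.7% of the vehicle mean in pair-fed and 13.5% in ethanol-fed mice. Without IMC, the EtOH mean was 49.6% of the Pair mean, with overlapping mice.

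Cyp3a41a had 5726, 4224, 4210 and 2624 normalised reads in Pair mice 10, 12, 14 and 16, and 1914, 1939, 1957 and 2839 in Pair IMC mice 2, 4, 6 and 8. In EtOH mice 1, 3, 5 and 7 it had 1855, 5026, 5579 and 4410, and in EtOH IMC mice 9, 11, 13 and 15 it had 1161, 1182, 230 and 139. The pair-fed groups overlapped through Pair mouse 16 and Pair IMC mouse 8, whereas the ethanol-fed groups did not overlap. Cyp3a41b was much lower, at 88.0 to 349 in Pair, 14.1 to 31.3 in Pair IMC, 51.7 to 345 in EtOH and 0.939 to 15.4 in EtOH IMC. The 2 lowest of the EtOH IMC mice held 1 read each of Cyp3a41b. Summed over both genes, the mean was 4413 ± 1373 in Pair, 2186 ± 457 in Pair IMC, 4420 ± 1763 in EtOH and 686 ± 579 in EtOH IMC, a ratio with IMC over vehicle of 0.495 on the pair diet and 0.155 on the ethanol diet. The share of Cyp3a41b in this sum was 3.25% to 5.74% in Pair and 2.71% to 5.83% in EtOH, against 0.733% to 1.41% in Pair IMC and 0.427% to 1.31% in EtOH IMC, so that the 2 rows did not move by the same factor.

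Within the EtOH IMC group, mice 13 and 15 were the 2 lowest for each of Cyp3a16, Cyp3a41a, Cyp3a41b and Cyp3a44. For Cyp3a44, for example, they had 45.5 and 42.3 where mice 9 and 11 had 232 and 221. Their libraries held 10896697 and 11622281 reads, the 2 lowest totals of their group, against 11802631 and 12601199 in mice 9 and 11. For Cyp3a11, Cyp3a13 and Cyp3a59 they were neither both lowest nor both highest, and for Cyp3a25 they were the 2 highest, mouse 15 by a margin of 15123 to 15120. In the EtOH group, mouse 1 was the lowest for Cyp3a16, Cyp3a41a and Cyp3a41b and the highest for Cyp3a11. The coefficient of variation within a group was 7.52% to 18.3% for Cyp3a11 and 26.8% to 104% for Cyp3a16.

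Cyp3a11, the main Cyp3a enzyme of mouse liver, had 29257, 24705, 25857 and 27803 normalised reads in Pair mice 10, 12, 14 and 16, and 31007, 24833, 21428 and 21434 in Pair IMC mice 2, 4, 6 and 8. It had 47556, 38255, 35779 and 47018 in EtOH mice 1, 3, 5 and 7, and 32097, 23100.2, 28324 and 24500.2 in EtOH IMC mice 9, 11, 13 and 15. EtOH mice stood above every mouse of the other 3 groups, which overlapped with one another. The EtOH mean was 157% of the Pair mean, and the EtOH IMC mean was 64.1% of the EtOH mean and 109% of the Pair IMC mean.

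Cyp3a25 and Cyp3a59, the neighbouring pair of the cluster, differed from Cyp3a11 and from each other. Cyp3a25 had 8062, 7101, 12474 and 8440.03 in Pair mice 10, 12, 14 and 16, 6968, 11372, 10591 and 10108 in Pair IMC mice 2, 4, 6 and 8, 9879, 11097, 7964 and 11130.2 in EtOH mice 1, 3, 5 and 7, and 14174, 15120, 17494 and 15123 in EtOH IMC mice 9, 11, 13 and 15. All EtOH IMC mice were above all mice of the other groups, which overlapped. Cyp3a59 had 871, 674, 1257 and 723 in Pair mice 10, 12, 14 and 16, 349, 394, 412 and 476 in Pair IMC mice 2, 4, 6 and 8, 1550.4, 1714, 1135 and 1784 in EtOH mice 1, 3, 5 and 7, and 1245, 1117, 1404 and 1192 in EtOH IMC mice 9, 11, 13 and 15. Its lowest group was Pair IMC, without overlap with the other 3 groups, and its ethanol-fed groups overlapped.

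Cyp3a13, outside the cluster, had 1970, 3810, 2353 and 2243 in Pair mice 10, 12, 14 and 16, and 2362, 1958, 2293 and 2707 in Pair IMC mice 2, 4, 6 and 8. It had 3606, 3829, 2647 and 3923 in EtOH mice 1, 3, 5 and 7, and 4947, 4670, 4415 and 4912 in EtOH IMC mice 9, 11, 13 and 15. As for Cyp3a25, EtOH IMC mice were above all others, and here the pair-fed groups overlapped widely. The EtOH IMC mean was 203% of the Pair IMC mean.

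**Figure D2:**
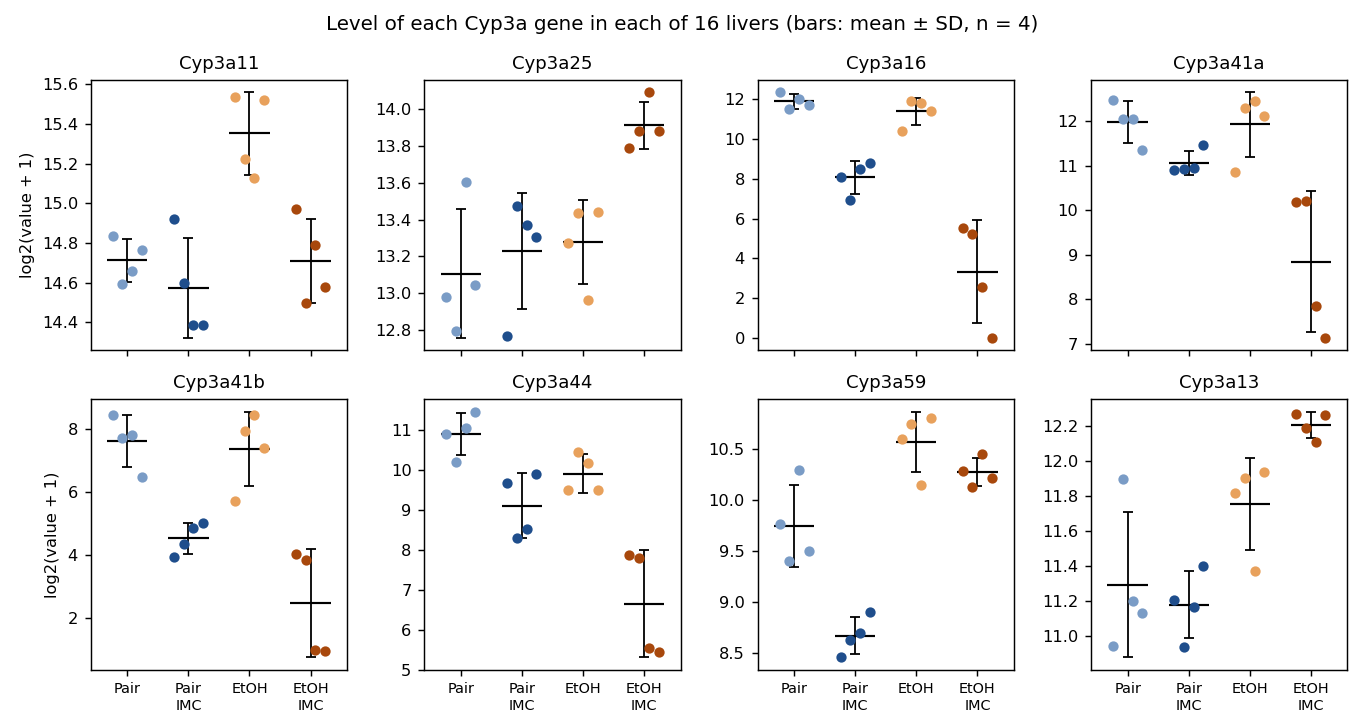
Level of each of the 8 Cyp3a genes, as log2 of the normalised read count plus 1 (vertical axes differ between genes), in each liver of the 4 groups, in order of library number, with the mean and SD of each group (n = 4). Cyp3a16, Cyp3a41a, Cyp3a41b and Cyp3a44 were lowest in EtOH IMC mice 13 and 15, Cyp3a25 and Cyp3a13 were highest in EtOH IMC, and Cyp3a11 was highest in EtOH.

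The first comparison asked how IMC differed from vehicle in pair-fed mice. On the scale of log2(value + 1), the fold change was -3.82 ± 0.83 (SE) for Cyp3a16, -3.08 ± 0.68 for Cyp3a41b, -1.80 ± 0.51 for Cyp3a44, -1.07 ± 0.17 for Cyp3a59 and -0.92 ± 0.54 for Cyp3a41a. Cyp3a11, Cyp3a13 and Cyp3a25 differed by -0.14 ± 0.15, -0.12 ± 0.17 and 0.12 ± 0.17, each about its standard error or less. Cyp3a16, Cyp3a41b, Cyp3a44 and Cyp3a59, 4 of the 8 members and all lower with IMC, had an adjusted p under 0.05 in the limma fit over all genes, as did 9.48% of all genes tested, and the same 4 did not overlap between groups, as 14.3% of genes did not. Since the members were chosen with these differences known, these counts are a description, here and below. With only the libraries compared in the fit, Cyp3a41a passed the threshold as well. The call of Cyp3a44 was lost when any 1 of 5 livers was left out, namely Pair mice 10, 14 or 16 or Pair IMC mice 4 or 6, with a log2 fold change between -2.07 and -1.53 over all libraries left out in turn. Without a trend in the prior variance the call of Cyp3a44 was lost too. With a pseudocount of 0.1 the call of Cyp3a16 was lost, at a log2 fold change that stayed at -3.82. The fit takes 1 spread per gene from all 4 groups, and for Cyp3a16 this includes the value of 0 in EtOH IMC mouse 15, which is not in this comparison.

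In ethanol-fed mice Cyp3a16, Cyp3a41a, Cyp3a41b and Cyp3a44 were each lower with IMC. The log2 fold change of IMC against vehicle in ethanol-fed mice was -8.06 ± 0.83 for Cyp3a16, -4.92 ± 0.68 for Cyp3a41b, -3.25 ± 0.51 for Cyp3a44 and -3.08 ± 0.54 for Cyp3a41a. The value of Cyp3a16, which rests on few reads, ranged from -8.97 to -6.61 over the settings tried. Cyp3a11 and Cyp3a59 differed by -0.64 ± 0.15 and -0.30 ± 0.17, and Cyp3a25 and Cyp3a13 by 0.64 ± 0.17 and 0.45 ± 0.17. Members with an adjusted p under 0.05 were 6 of 8, against 21.5% of all genes, and 7 of 8 did not overlap between groups, against 25.3% of all genes. Cyp3a25 was the only one of the 6 in the direction of higher levels, and its call was lost without EtOH mouse 5 (log2 fold change between 0.53 and 0.69 over all libraries left out in turn). Cyp3a13 passed the threshold without Pair mouse 10 or 12, with quantile normalization, and with only the libraries compared.

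Averaged over both diets, which balances the library numbers, IMC differed from vehicle by -5.94 ± 0.59 for Cyp3a16, -4.00 ± 0.48 for Cyp3a41b, -2.52 ± 0.36 for Cyp3a44, -2.0 ± 0.38 for Cyp3a41a, -0.69 ± 0.12 for Cyp3a59 and -0.39 ± 0.10 for Cyp3a11 on the log2 scale. Cyp3a25 was higher by 0.38 ± 0.12, a call that was lost without any 1 of 5 livers, Pair mouse 12, Pair IMC mice 4 or 6, EtOH mouse 5 or EtOH IMC mouse 13, and Cyp3a13 differed by 0.17 ± 0.12. In this fit 7 members had an adjusted p under 0.05, and 28.2% of all genes did. The difference of the IMC effect between the diets, which is not balanced and coincides with high against low library numbers, was largest for Cyp3a16, at -4.24 ± 1.17, and was -2.16 ± 0.76 for Cyp3a41a, -1.84 ± 0.96 for Cyp3a41b, -1.45 ± 0.72 for Cyp3a44, -0.50 ± 0.21 for Cyp3a11, 0.51 ± 0.24 for Cyp3a25, 0.57 ± 0.23 for Cyp3a13 and 0.77 ± 0.24 for Cyp3a59. None of the 8 had an adjusted p under 0.05 for it with limma or with DESeq2, against 1.11% of all genes with limma. At an unadjusted p under 0.05 there were 6 members, against 1914 of the 12535 genes tested. With edgeR on whole reads, 1 member, Cyp3a16, had an adjusted p under 0.05, against 119 of all genes. Limma also called Cyp3a16 without EtOH IMC mouse 9 or mouse 11 or with a pseudocount of 5.

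**Figure D3:**
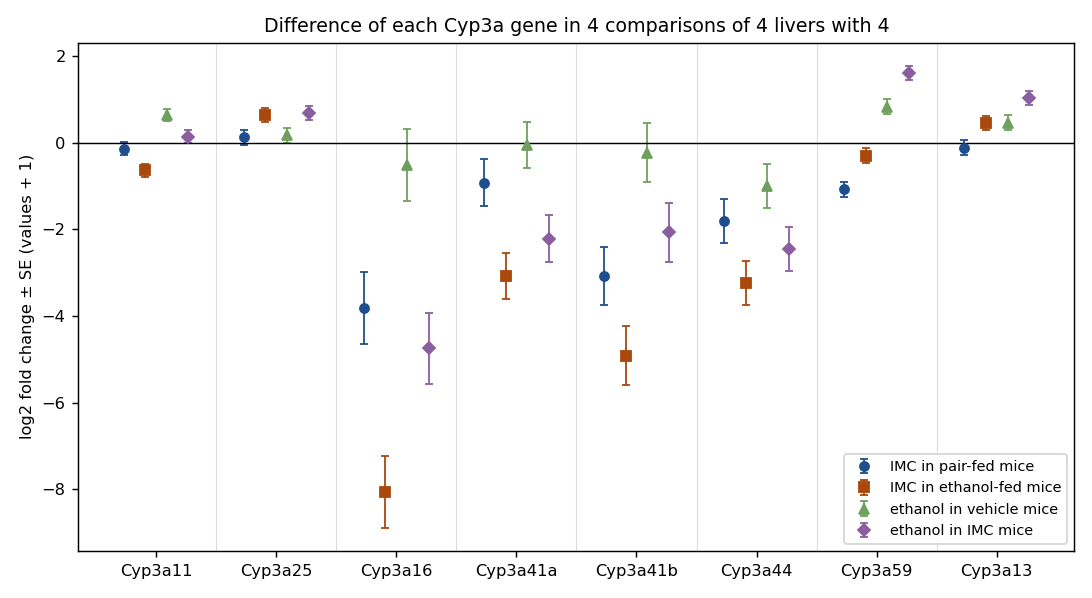
Log2 fold change ± SE of the 8 Cyp3a genes in the 4 comparisons between groups of 4 livers, from the fit on log2(value + 1), with a line at no difference. Differences with IMC reach -8.06 for Cyp3a16 in ethanol-fed mice, whereas those of Cyp3a11, Cyp3a25 and Cyp3a13 with IMC lie between -0.64 and 0.64.

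Ethanol was next compared with pair feeding, with the libraries of both diets on 1 scale. In vehicle mice, Cyp3a59 was higher by 0.83 ± 0.17 on the log2 scale and Cyp3a11 by 0.64 ± 0.15, and Cyp3a13, Cyp3a25, Cyp3a41a, Cyp3a41b, Cyp3a16 and Cyp3a44 differed by 0.46 ± 0.17, 0.17 ± 0.17, -0.05 ± 0.54, -0.24 ± 0.68, -0.51 ± 0.83 and -1.01 ± 0.51. Cyp3a11 and Cyp3a59 had an adjusted p under 0.05, 2 members against 11.9% of all genes, and Cyp3a11 was the 1 member without overlap between groups, against 19.0% of genes. Without Pair mouse 12 or EtOH mouse 5, Cyp3a13 passed the threshold as well. With only the libraries compared, Cyp3a44 passed it, in the direction of lower levels. On the deposited scale, which was set within each diet, the median of all genes with ethanol lay at 0.18 in vehicle mice and 0.19 in IMC mice in place of about 0, the members moved with it, and Cyp3a41a in vehicle mice changed sign, from -0.05 to 0.13.

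In IMC mice, ethanol went with differences in both directions. Cyp3a59, Cyp3a13 and Cyp3a25 were higher by 1.60 ± 0.17, 1.03 ± 0.17 and 0.69 ± 0.17, whereas Cyp3a16, Cyp3a44, Cyp3a41a and Cyp3a41b differed by -4.75 ± 0.83, -2.46 ± 0.51, -2.21 ± 0.54 and -2.07 ± 0.68. Cyp3a11 differed by 0.14 ± 0.15. Of the members, 7 had an adjusted p under 0.05, against 16.5% of all genes, and 6 did not overlap between groups, against 19.2% of genes. Cyp3a41b, whose groups overlapped, lost its call in 17 of the settings tried, among them edgeR and DESeq2 and the removal of Pair mice 12 or 14, EtOH mice 3 or 7, any Pair IMC mouse, or EtOH IMC mice 13 or 15. Averaged over vehicle and IMC, ethanol differed by 1.22 ± 0.12 for Cyp3a59, 0.75 ± 0.12 for Cyp3a13, 0.43 ± 0.12 for Cyp3a25, 0.39 ± 0.10 for Cyp3a11, -1.13 ± 0.38 for Cyp3a41a, -1.16 ± 0.48 for Cyp3a41b, -1.73 ± 0.36 for Cyp3a44 and -2.63 ± 0.59 for Cyp3a16. In this fit, 7 members and 26.1% of all genes had an adjusted p under 0.05. The call of Cyp3a41a was lost in 14 settings, among them edgeR, DESeq2 and 8 of the libraries left out singly: Pair mice 10, 12 and 14, Pair IMC mice 6 and 8, EtOH mouse 1, and EtOH IMC mice 13 and 15. That of Cyp3a41b was gained without EtOH IMC mouse 9 or mouse 11. The 4 pairwise comparisons share groups, so that they are not independent of each other.

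**Figure D4:**
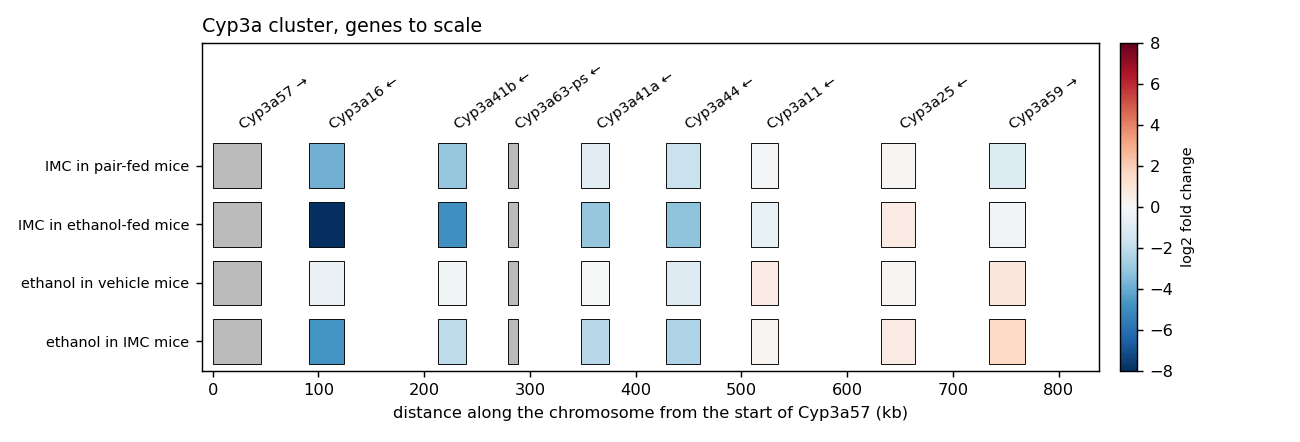
Map of the chromosome 5 cluster with genes drawn to scale along the distance from the start of Cyp3a57 (kb), arrows for the strand, and colour for the log2 fold change in each of the 4 comparisons. Grey marks Cyp3a57 and the pseudogene, which were not fitted. Cyp3a16, Cyp3a41b, Cyp3a41a and Cyp3a44 stand next to each other, with the pseudogene between them, and were lower with IMC on both diets except Cyp3a41a, whose pair-fed groups overlapped (log2 fold change -0.92 ± 0.54), and in ethanol-fed mice Cyp3a25 was the 1 fitted gene of the cluster that was higher with IMC.

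The make-up of the Cyp3a message pool is given as each member's share of the summed level per kb of exon. Cyp3a16, Cyp3a41a, Cyp3a41b and Cyp3a44 together made up 33.1% ± 4.28 (SD, n = 4) of the pool in Pair, 12.8% ± 3.30 in Pair IMC, 22.4% ± 8.59 in EtOH and 2.70% ± 2.27 in EtOH IMC. Cyp3a25 made up 26.3% ± 4.86, 38.8% ± 7.48, 24.7% ± 2.25 and 48.4% ± 4.21 in the same order of groups, and Cyp3a11 made up 32.5% ± 3.26, 40.2% ± 7.60, 42.8% ± 6.48 and 34.4% ± 3.42. With the length of the longest protein-coding transcript the share of Cyp3a11 was 50.6% ± 3.81, 58.4% ± 7.39, 61.3% ± 6.09 and 52.4% ± 3.74, and Cyp3a25 no longer exceeded Cyp3a11 in EtOH IMC, at 35.5% ± 3.81. Summed over the 8 members, normalised read counts were 49778 ± 4067 in Pair, 40280.4 ± 2700.0 in Pair IMC, 65548 ± 5629 in EtOH and 49301 ± 4259 in EtOH IMC. The ratio of means with IMC over vehicle was 0.809 on the pair diet and 0.752 on the ethanol diet. Without Cyp3a11 in the sum, the ratio was 0.682 on the pair diet, without overlap, and 0.953 on the ethanol diet, where the groups overlapped.

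**Figure D5:**
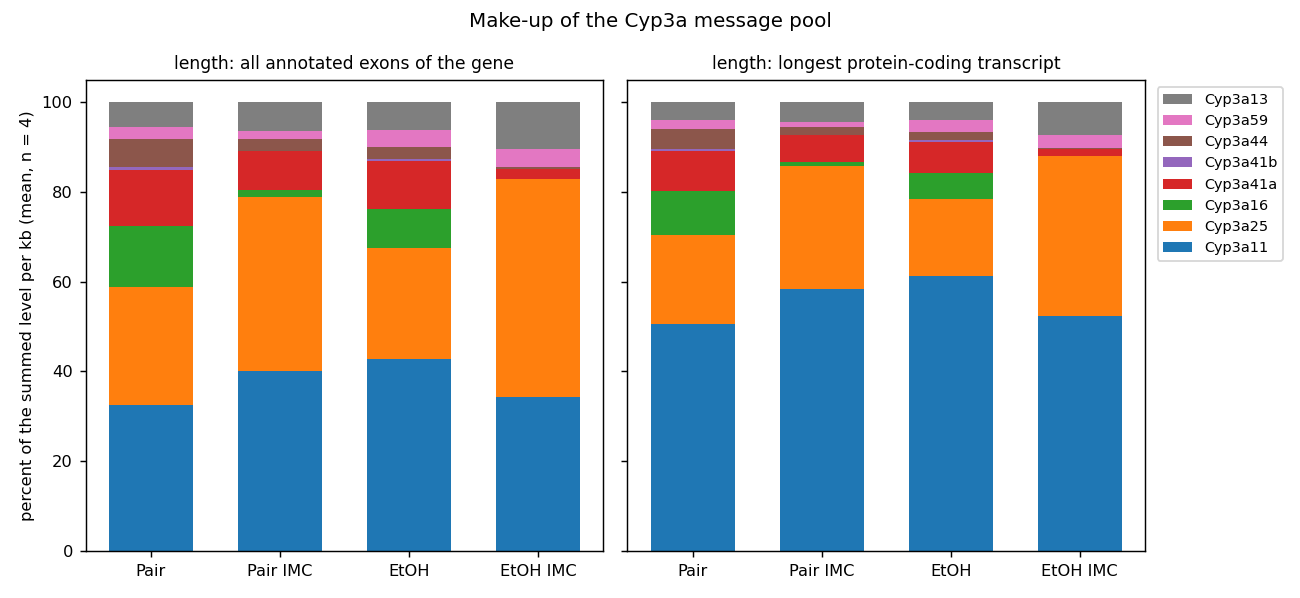
Mean share (n = 4) of each Cyp3a gene in the summed level per kb, with the length of all annotated exons (left) and of the longest protein-coding transcript (right), in the 4 groups. Cyp3a16, Cyp3a41a, Cyp3a41b and Cyp3a44 made up 33.1% in Pair and 2.70% in EtOH IMC on the left, and 23.8% and 1.89% on the right.

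The receptors that drive Cyp3a transcription differed by at most 0.66 on the log2 scale. Nr1i2, which encodes PXR, had a mean level of 1241 ± 66.1 in Pair, 1444 ± 145 in Pair IMC, 1026 ± 36.0 in EtOH and 1294 ± 120 in EtOH IMC, and it was higher with IMC in ethanol-fed mice (log2 fold change 0.33 ± 0.08, adjusted p = 0.0102 with limma) and lower with ethanol in vehicle mice (-0.27 ± 0.08, adjusted p = 0.0427). Nr1i3, which encodes CAR, was lower with ethanol in IMC mice, from 691 ± 62.5 to 438 ± 40.4 (-0.66 ± 0.16, adjusted p = 0.0106). Rxra, their shared partner, and Por, the reductase that supplies electrons to P450 enzymes, had limma adjusted p-values of at least 0.881 and 0.181 in the 4 comparisons. Of 21 receptors and regulators, 3 were higher and 2 lower with IMC on the pair diet, 4 and 1 on the ethanol diet, 0 and 3 with ethanol in vehicle mice, and 1 and 2 in IMC mice, and the median of their log2 fold changes lay between -0.07 and 0.07. The shares of all genes tested with an adjusted p under 0.05, in either direction, were 9.48%, 21.5%, 11.9% and 16.5% in the same order. Hnf4a, a hepatocyte factor, was higher with IMC on both diets, by 0.71 ± 0.13 (adjusted p = 0.00322 with limma) and 0.62 ± 0.13 (adjusted p = 0.00298). Foxa3, a forkhead factor of hepatocytes, was higher with IMC in pair-fed mice by 0.36 ± 0.11 (adjusted p = 0.0424 with limma) and in ethanol-fed mice by 0.71 ± 0.11 (adjusted p = 0.000273). Foxa3 was lower with ethanol in vehicle mice (-0.77 ± 0.11, adjusted p = 0.000527 with limma) and in IMC mice (-0.42 ± 0.11, adjusted p = 0.0144).

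Other genes known as targets of PXR and CAR were set beside Cyp3a11. Of 34 such genes outside the Cyp3a family, 19 were higher and 0 lower with ethanol in vehicle mice, with a median log2 fold change of 0.69 against -0.01 over all genes tested, and 19 were higher and 2 lower in IMC mice, with a median of 0.96. With IMC, 4 were higher and 5 lower on the pair diet, and 12 and 7 on the ethanol diet, with medians of 0.05 and 0.12. Over all genes, 11.9% and 16.5% passed the threshold with ethanol in vehicle and in IMC mice, and 9.48% and 21.5% with IMC on the pair and ethanol diets. Cyp2b10, the classical CAR target, was at 68.7 ± 13.9 in Pair, 56.7 ± 18.6 in Pair IMC, 3913 ± 1681 in EtOH and 4469 ± 2128 in EtOH IMC, a difference with ethanol of 5.75 ± 0.37 in vehicle mice and 6.15 ± 0.37 in IMC mice (adjusted p = 1.39e-07 and 2.25e-08 with limma). Abcc3, an export pump, and Gstm4, a glutathione transferase, were higher with ethanol by 1.14 ± 0.13 and 1.38 ± 0.15 in vehicle mice (adjusted p = 5.46e-05 and 3.55e-05 with limma). The corresponding values of Cyp3a11 were 0.64 ± 0.15 in vehicle and 0.14 ± 0.15 in IMC mice. Of 17 genes of electron supply and haem, 3 were higher and 0 lower with ethanol in vehicle mice, 4 and 1 in IMC mice, 1 and 0 with IMC on the pair diet, and 3 and 2 on the ethanol diet, and the medians were at most 0.05 in size.

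Growth hormone signalling and other sex-biased genes were set beside the female-biased Cyp3a genes. In 13 tested of 14 genes of growth hormone signalling, 0 were higher and 3 lower with IMC on the pair diet, 1 and 5 on the ethanol diet, 0 and 2 with ethanol in vehicle mice, and 1 and 3 in IMC mice. Their medians were -0.51, -0.23, -0.13 and -0.10 in the same order, and 9.48%, 21.5%, 11.9% and 16.5% of all genes passed the threshold. Ghr, the growth hormone receptor, was at 5828 ± 587 in Pair, 4986 ± 738 in Pair IMC, 5268 ± 398 in EtOH and 3149 ± 217 in EtOH IMC, and was lower with IMC in ethanol-fed mice (-0.74 ± 0.10, adjusted p = 0.000144 with limma). Socs2, an inhibitor induced by growth hormone, was lower with ethanol in vehicle mice (-2.07 ± 0.27, adjusted p = 0.000277 with limma) and higher with IMC in ethanol-fed mice (1.38 ± 0.27, adjusted p = 0.00183). Cux2, a transcription factor of female liver that is in both lists, was lower with ethanol in vehicle mice (-1.64 ± 0.23, adjusted p = 0.000573 with limma).

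Among 20 female-biased liver genes outside the family, 1 was higher and 4 lower with IMC on the pair diet, and 1 and 9 on the ethanol diet, with median log2 fold changes of -0.40 and -0.49 against about 0 (-0.00096 and -0.0013) over all genes. With ethanol, 4 were higher and 4 lower in vehicle mice, and 2 and 6 in IMC mice. Over all genes, 9.48% and 21.5% passed the threshold with IMC on the pair and ethanol diets, and 11.9% and 16.5% with ethanol in vehicle and IMC mice. Hao2, a peroxisomal oxidase, was lower with IMC in pair-fed and in ethanol-fed mice (-1.03 ± 0.17 and -2.09 ± 0.17, adjusted p = 0.00139 and 1.67e-06 with limma). Cyp2b13 and Cyp2c40, both female-biased P450 genes, were lower with IMC in ethanol-fed mice (-1.78 ± 0.22 and -1.31 ± 0.19, adjusted p = 3.93e-05 and 0.000157 with limma). Cyp2b13, which is also in the list of PXR and CAR targets, was lower with IMC in pair-fed mice too (-0.86 ± 0.22, adjusted p = 0.0199 with limma). Cyp2b13 was higher with ethanol in vehicle mice (1.07 ± 0.22, adjusted p = 0.00474 with limma). Of 14 tested male-biased genes out of 20, 1 was higher and 3 lower with IMC on the pair diet, 1 and 5 on the ethanol diet, 1 and 0 with ethanol in vehicle mice, and 3 and 2 in IMC mice, with medians of -0.30, -0.15, 0.09 and 0.05. Mup20 was higher with IMC by 1.53 ± 0.18 and 1.86 ± 0.18 on the 2 diets (adjusted p = 0.000146 and 6.18e-06 with limma), whereas Mup3, another urinary protein gene, was lower with IMC in ethanol-fed mice (-2.67 ± 0.25, adjusted p = 4.39e-06).

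Of 15 pericentral genes, 1 was higher and 2 lower with IMC on the pair diet, 1 and 4 on the ethanol diet, 2 and 0 with ethanol in vehicle mice, and 3 and 3 in IMC mice, with medians of -0.24, -0.21, 0.14 and -0.06. Of 14 periportal genes these counts were 1 and 1, 3 and 3, 3 and 0, and 4 and 1, with medians of -0.10, 0.0026, 0.26 and 0.44. Of 61 tested P450 genes outside the Cyp3a family, 7 were higher and 5 lower with IMC on the pair diet, 11 and 17 on the ethanol diet, 14 and 0 with ethanol in vehicle mice, and 14 and 12 in IMC mice, with medians between -0.10 and 0.09. In the same order, 9.48%, 21.5%, 11.9% and 16.5% of all genes tested passed the threshold.

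Of the marker lists of other cells, the 6 intestinal markers summed to 957 to 1081 in Pair, 450.02 to 616 in Pair IMC, 917 to 1031 in EtOH and 187 to 1247 in EtOH IMC. Cdx1 was at 0 in each group, Alpi and Lct were each at 0 in 3 of 4 groups, and Cdh17 was at 0 in Pair IMC. With 4 of the 6 markers at 0 in Pair IMC, the intestinal sum rested there on few genes. In pair-fed mice this sum did not overlap between IMC and vehicle and was lower with IMC. The same held for Cyp3a16, Cyp3a41b, Cyp3a44 and Cyp3a59, but not for Cyp3a41a, whose groups overlapped. The 8 hepatocyte markers summed to 1219130 to 1829470 in Pair and 1713520 to 1836650 in Pair IMC, and to 1136860 to 1241820 in EtOH and 1035580 to 1332830 in EtOH IMC, with overlap between IMC and vehicle on both diets. Pancreatic markers summed to 99.2 to 123 in Pair and 70.6 to 86.9 in Pair IMC, with Amy2a1, Cpa1 and Pnlip at 0, and lymphocyte markers summed to at most 53.6 in any library. The 6 bile duct markers summed to 705 to 1214 in Pair and 612 to 695 in Pair IMC, and the 6 stellate markers to 4326 to 5093 in EtOH and 2804 to 3666 in EtOH IMC. Macrophage and endothelial sums overlapped between IMC and vehicle on both diets. The part of these marker differences in the Cyp3a levels was not tested.

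Genes outside the family with the most similar pattern over the 16 libraries were sought by the Pearson correlation of log2(value + 1), as a description over libraries that share the 4 groups. For Cyp3a11 these were Zfp532, Hmgxb4 and Ntpcr, with r of 0.93, 0.92 and 0.89 over 16 libraries, and like Cyp3a11 they were highest in EtOH, at 68.2 ± 9.22 for Zfp532 against 30.4 to 40.6 in the other group means. For Cyp3a16 they were Mdm4, a regulator of p53, Mup2, a urinary protein gene, and 1500017E21Rik, with r of 0.95, 0.94 and 0.94. Mup2 had group means of 87.2 ± 33.4, 15.7 ± 5.85, 101 ± 27.8 and 4.50 ± 1.79 in Pair, Pair IMC, EtOH and EtOH IMC, with both vehicle groups above both IMC groups, as for Cyp3a16.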

How the data were processed

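Liver RNA of 16 mice was prepared with a TruSeq directional mRNA kit. According to the study's methods, the authors trimmed reads with Trim Galore, checked them with FastQC, aligned them with STAR to mm10 and normalised counts in edgeR by the upper quantile; the counting tool is not given in the sources used here, and the methods describe single-end reads where the labels describe paired-end reads of 100 bases. The deposited signal values are normalised read counts per gene, made by the authors with size factors set within each diet. In each library 100% of the values were whole to within 0.01 once divided by the worth of 1 read, but in library 15 this worth was 1.01, too near 1 to tell whole reads from the values themselves, and edgeR was therefore repeated with that library left out. The table holds 27212 rows for 24082 Ensembl IDs, and 3130 rows that repeat an ID hold identical values and were used once.

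All 16 libraries were divided by a median ratio over 13121 genes with reads in each library, since the deposited scale differed by 1.14 times between diets. The 12535 genes whose deposited values reached 10 in 4 or more libraries were fitted with limma 3.58.1 in R 4.3.3 on log2(value + 1), with a mean per group and a trended prior variance, and two-sided p-values were adjusted by Benjamini-Hochberg, with a threshold of 0.05. Alternatives were pseudocounts of 0.1 and 5, no filter, a mean of at least 100, the deposited scale, quantile normalization, no trend, only the libraries compared, tests on whole reads with edgeR 4.0.16 and with DESeq2 1.42.0, and the omission of single libraries. On whole reads edgeR called 1155 and DESeq2 called 1484 genes for IMC in pair-fed mice, where limma called 1188. The fit was tested on simulated data. Intervals of counts cover counting error only. The limma p-values and standard errors rest on the spread between mice within groups, with 1 estimate per gene shared by the 4 groups and moderated over all genes. They are thus not specific to the groups compared.

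The members and the gene lists were chosen with earlier results of these data known. The genes named are the 8 members, Nr1i2, Nr1i3, Rxra and Por, genes among the 3 of each list with the smallest adjusted p among those under 0.05 in the 4 pairwise comparisons, and the 3 genes most correlated with Cyp3a11 and with Cyp3a16; further genes are marker genes named beside their sums. Positions, transcripts and exon lengths are from GENCODE vM21, and upstream sequences from RefSeq on GRCm38.p6, which matched all 8 members. Identities were computed with edlib 1.3.9.post1 and plots with Python 3.11.15 and matplotlib 3.10.9.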

Additional observations from a re-analysis of the deposited data

Results flagged for a closer look

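Among 60 groups of 4 livers examined for the 8 Cyp3a genes, the sums and the receptor genes, 2 held a library far from its group by Dixon's ratio, and chance flags about 1 in 20 groups. For Cyp3a41a, Pair IMC mouse 8 was the highest of its group at 2839 normalised reads, against 1914 to 1957 in the other 3 mice (ratio 0.954). The sum of Cyp3a41a and Cyp3a41b gave the same mouse (ratio 0.94), as Cyp3a41a makes up nearly all of it.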

How the results depend on the processing

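The log2 fold change of each member kept its direction under each alternative where it had an adjusted p under 0.05. Calls of a member differed from the reported ones in 14 of the 56 combinations of member and contrast, under at least 1 setting. Chosen after seeing the data, the test on whole reads without library 15 gave -6.61 for Cyp3a16 with IMC in ethanol-fed mice and -3.32 with ethanol in IMC mice. Over all genes, the count for IMC in pair-fed mice was 691 with only the libraries compared, and 534 to 1444 with each library left out, lowest without Pair IMC mouse 4 (542 without Pair IMC mouse 6). Counts for the difference between diets were 139 at first, 80 without a filter, 82 without a trend, 340 with DESeq2 and 72 with edgeR without library 15, and ranged from 54 to 159 with each library left out; 11 libraries lowered it by over 1.5 times, Pair mice 12 and 14, Pair IMC mice 2, 6 and 8, all EtOH mice, and EtOH IMC mice 13 and 15. The number of members called for that difference was 1 with a pseudocount of 5 and 1 with edgeR, and 0 to 1 with each library left out. On the deposited scale, not rescaled between diets, ethanol called 3000 genes in vehicle mice, 3624 in IMC mice and 5222 averaged over both, of which 93.4%, 87.8% and 90.6% were higher, against 53.4%, 47.8% and 49.6% after rescaling, and edgeR without library 15 called 1344 in IMC mice. With each library left out, the counts with ethanol were 805 to 1596 in vehicle mice (805 without EtOH mouse 5, 974 without Pair mouse 14) and 1373 to 2217 in IMC mice (1373 without EtOH IMC mouse 15). The cause of these shifts was not tested. No paired analysis was possible because the groups share no replicate numbers. Sums of Cyp3a41a and Cyp3a41b and the protein-coding length were likewise chosen after the data were seen.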
